A study of Mus musculus with 11 samples.

Results

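The 37 genes of the mouse mitochondrial genome were followed across sham-operated and infarcted hearts. They were all genes of the count table annotated to the mitochondrial chromosome (symbols beginning with mt-), 37 of 55421 genes: 13 protein-coding genes, 2 rRNA genes and 22 tRNA genes. The study used RNA-seq of heart tissue to compare inhibition of ADAM10, a membrane protease that sheds the ectodomains of cell surface proteins, with vehicle after myocardial infarction (MI). All 11 animals were female C57BL/6J mice aged 8 weeks, and tissue was taken 3 days after surgery. In 4 mice (DMSO: A105, A127, A128 and A129) the left anterior descending artery (LAD) was permanently ligated and the vehicle DMSO was given. In 4 others (A10i: A116, A117, A119 and A120) the same ligation was combined with the ADAM10 inhibitor GI254023X at 100 mg/kg, dissolved in DMSO and delivered by osmotic minipump. The remaining 3 (sham: S1, S2 and S3) were sham-operated, also received DMSO and gave healthy tissue. The tissue of the ligated mice was the infarct together with its border zone.

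The mitochondrial genome is a small circle that encodes core subunits of respiratory complexes I, III and IV and of the ATP synthase, together with the rRNAs and tRNAs that the organelle needs to translate them. Each strand is copied by the mitochondrial RNA polymerase into a long polycistronic precursor. Excision of the tRNAs that lie between the other genes releases the mRNAs and rRNAs, whose steady level then depends on stability as well as synthesis. The heavy-strand promoters serve nearly all of these genes, while mt-Nd6 and a minority of the tRNAs are read from the opposite strand. The remaining respiratory subunits come from nuclear genes, and in the heart, which lives on oxidative phosphorylation, both sets are abundant.

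Libraries held between 21702623 and 29511768 counts of poly(A)-enriched RNA, and the mitochondrial genes took from 3342169 to 6411427 of them. Cardiomyocyte markers made up 15 to 15.2% of the nuclear counts in sham hearts, 8.7 to 11.1% in DMSO hearts and 10.2 to 12.8% in A10i hearts, so the tissue carried the transcripts of its label. Of 12 macrophage markers 10 were called higher in DMSO and 12 in A10i hearts, where 12.9% and 13.7% of all genes tested were. Together they took 0.0418 to 0.0459% in sham hearts and 0.0868 to 0.27% after ligation. In bulk tissue, fewer cells of a type and less RNA per cell cannot be told apart, and this holds for every mitochondrial level below.

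Transcripts of the mitochondrial genome took a smaller part of the library in every ligated heart than in any sham heart. Among the ligated mice the lowest shares were 14.8% in A129, of the DMSO group, and 15.7% in A116, of the A10i group, while A105 was the highest at 18.6%. The group means were 21.8% ± 0.365 (SD, n = 3) in sham, 17% ± 1.69 (n = 4) in DMSO and 17% ± 0.965 (n = 4) in A10i hearts. The difference from sham was -4.79 percentage points for DMSO and -4.77 for A10i, or -22% and -21.9% of the sham level. In both cases a two-sided exact permutation test gave p = 0.0571, the smallest that 4 mice against 3 allow, so the design cannot reach 0.05 for a single value. The A10i and DMSO means differed by 0.0134 percentage points, far inside the spread of either group (exact permutation p = 1.0). The 2 ligated groups were compared with the same 3 sham mice.

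**Figure D1:**
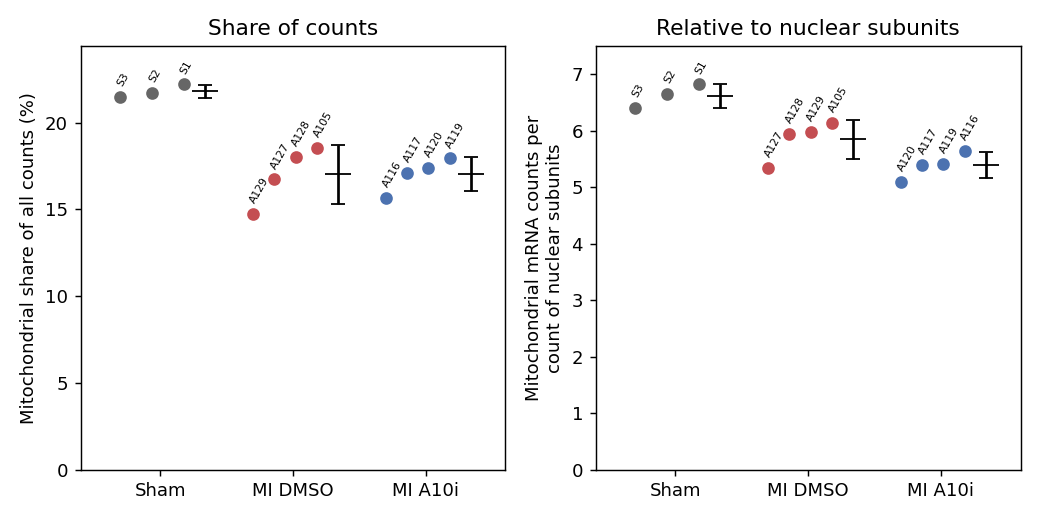
Each point is a mouse, with the group mean ± SD to its right. The left panel shows the mitochondrial genes' share of all counts (%), where the ligated hearts lie between 14.8 and 18.6% and all lie below the sham hearts. The right panel shows counts of the 13 mitochondrial mRNAs per count of the nuclear-encoded subunits of complexes I, III, IV and V, with sham hearts from 6.4 to 6.82 and ligated hearts from 5.09 to 6.13.

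Single genes were tested with edgeR's quasi-likelihood test over all genes of each pair of groups, with TMM scaling, which sets the bulk of genes to no change, and calls were made at a Benjamini-Hochberg adjusted p under 0.01. Of the 37 mitochondrial genes, 31 passed the filter on low counts and the other 6 were tRNA genes. All 31 had a negative log2 fold change against sham in each ligated group, and 28 (DMSO) and 29 (A10i) of them when scaled by library size alone. In DMSO hearts 5 of the 31 were called lower and 0 higher, against 9.6% of all genes tested that were called lower in that comparison, and 20 were lower at an adjusted p under 0.05, against 18.4%. In A10i hearts 14 were called lower and 0 higher, against 9.11% of all genes, and 24 were lower at 0.05, against 17.6%. The median log2 fold change of the 31 genes was -0.52 in DMSO hearts and -0.47 in A10i hearts, where the median of all genes tested was 0.00 and -0.01. Each ligated mouse lay below each sham mouse for 20 of the 31 genes in DMSO hearts, where 23.6% of all genes did so, and for 25 in A10i hearts, where 23.5% did.

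The number of calls changed when single libraries were left out or the fit was changed. The share of all genes called in these other fits is not given here. Whether the change was particular to mitochondrial genes was therefore not tested. Without S1, S2 or S3 the DMSO comparison called 1, 2 and 2 genes, without A127 it called 3, and without A105 or A129, the highest and lowest of the DMSO mice in mitochondrial share, it called 13 and 12. The A10i comparison called 5, 7 and 6 without S1, S2 or S3, and 9 without A117 or without A120. In a joint fit of all 11 libraries, 6 genes were called in DMSO hearts (mt-Nd3, mt-Nd5, mt-Nd6, mt-Rnr1, mt-Tg and mt-Tq), and 4 in A10i hearts (mt-Nd5, mt-Nd6, mt-Tg and mt-Te), so that the other 10 A10i calls were lost there. DESeq2 called 16 genes in DMSO hearts, mt-Nd3, mt-Nd4, mt-Co2 and mt-Cytb among them. A call in A10i hearts that was missed in DMSO hearts therefore depended on the fit. No mitochondrial gene was called higher in any of these fits. Scaling by library size alone let the median of all genes move to 0.21 and 0.18 on the log2 scale, where the medians of the 31 genes were -0.33 and -0.29.

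**Figure D2:**
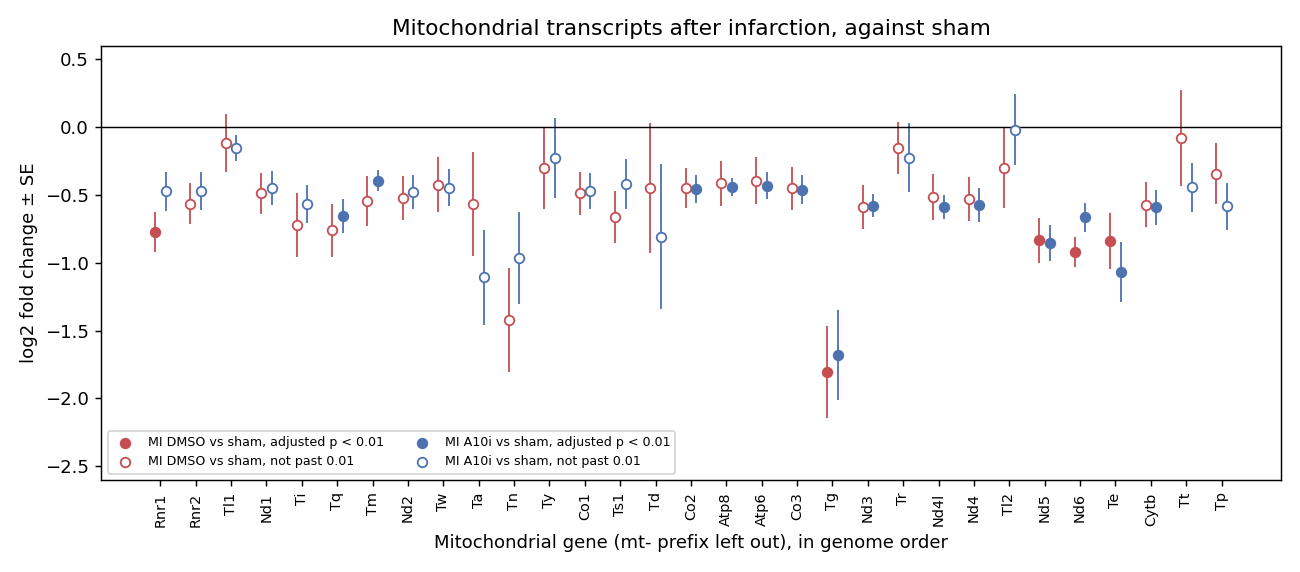
Log2 fold change ± SE of the 31 mitochondrial genes tested, in genome order, for DMSO hearts (red) and A10i hearts (blue) against the same 3 sham hearts. Filled symbols passed an adjusted p of 0.01, and every point lies below 0 under TMM scaling, with mt-Tg lowest in each group and mt-Nd5 and mt-Nd6 the lowest mRNAs.

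Complex I takes electrons from NADH, and 7 of its core subunits are mitochondrial products. The 2 mRNAs that were lowest after ligation both belonged to it and neighbour each other on opposite strands: mt-Nd5 (chrM:11742-13565, mm10, heavy-strand transcript), a proton-pumping subunit, and mt-Nd6 (chrM:13552-14070), the single protein-coding gene of the light-strand transcript. Their coding ends overlap by 14 bases, shown in capitals in the last 60 bases of each (chrM:13506-13565 on the plus strand and chrM:13552-13611 on the minus strand, GENCODE M21 transcripts).
mt-Nd5: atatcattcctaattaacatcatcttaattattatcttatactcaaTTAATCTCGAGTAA
mt-Nd6: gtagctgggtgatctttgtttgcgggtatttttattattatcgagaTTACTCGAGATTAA
In counts per 1000000 after TMM scaling (normalised CPM), mt-Nd5 stood at 31239.6, 30831 and 29399 in the sham mice S1, S2 and S3, 21394, 14434, 17742 and 15027 in the DMSO mice A105, A127, A128 and A129, and 14732, 17851, 19495 and 15285 in the A10i mice A116, A117, A119 and A120. No ligated heart reached the lowest sham heart. The log2 fold change was -0.83 ± 0.16 (SE) in DMSO hearts (adjusted p = 0.00356) and -0.85 ± 0.14 in A10i hearts (adjusted p = 0.00116). It was called in 3 of the 7 DMSO fits and 7 of the 7 A10i fits that each left out 1 mouse. For mt-Nd6 the normalised CPM were 497, 523 and 493 in the sham mice, 301, 266, 278 and 223 in the DMSO mice and 262, 347, 322 and 338 in the A10i mice, in the same order. Its fold changes were -0.92 ± 0.11 in DMSO hearts (adjusted p = 0.00038) and -0.67 ± 0.10 in A10i hearts (adjusted p = 0.0011), again with no overlap with sham, and it was called in 7 and 7 of those 7 fits. It was the single mitochondrial gene called in every one of them in both comparisons. The ranges of the ligated groups overlapped, A10i mice running from 262 to 347 and DMSO mice from 223 to 301.

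The other 5 complex I mRNAs lay closer to the middle of the set. They were mt-Nd1 (chrM:2751-3707), at 26498 ± 375 (sham), 18942 ± 2839.7 (DMSO) and 19394 ± 1738 (A10i) normalised CPM (mean ± SD), and mt-Nd2 (chrM:3914-4951), at 20718 ± 547 (sham), 14470.0 ± 2653 (DMSO) and 14860.1 ± 1495 (A10i) normalised CPM. Neither was called, with log2 fold changes of -0.49 ± 0.15 and -0.52 ± 0.17 in DMSO hearts (adjusted p = 0.0293 and 0.0303) and -0.45 ± 0.12 and -0.48 ± 0.12 in A10i hearts (adjusted p = 0.0156 and 0.0125). The remaining 3 passed 0.01 in the A10i comparison and not in the DMSO comparison, and lost the A10i call in the joint fit. mt-Nd4 (chrM:10167-11544) was at 17783 ± 340.3 (sham), 12374 ± 2346 (DMSO) and 11946 ± 1316 (A10i) normalised CPM, with a log2 fold change of -0.57 ± 0.13 in A10i hearts (adjusted p = 0.00553) and -0.53 ± 0.16 in DMSO hearts (adjusted p = 0.0285). mt-Nd4l (chrM:9877-10173) was at 213 ± 12.6 (sham), 149.8 ± 36.5 (DMSO) and 142 ± 14.4 (A10i) normalised CPM, with -0.59 ± 0.09 (adjusted p = 0.000985) and -0.51 ± 0.17 (adjusted p = 0.0352). mt-Nd3 (chrM:9459-9806) was at 237 ± 2.18 (sham), 158 ± 35.9 (DMSO) and 159 ± 15 (A10i) normalised CPM, with -0.58 ± 0.08 (adjusted p = 0.000776) and -0.59 ± 0.16 (adjusted p = 0.0172). For these 3 genes the SE was larger in the DMSO comparison, and the A10i-DMSO difference was -0.05 ± 0.18, -0.08 ± 0.16 and 0.01 ± 0.16, each smaller than its SE.

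mt-Cytb (chrM:14145-15288) encodes cytochrome b, the mitochondrial subunit of complex III. Its normalised CPM were 38191, 37676 and 37654 in the sham mice, 31236, 24279.8, 26777 and 19884 in the DMSO mice and 20892, 26534, 27098 and 25719 in the A10i mice, in the same order. All 8 ligated hearts lay below the sham hearts, A105 nearest to them. The log2 fold change was -0.57 ± 0.17 in DMSO hearts (adjusted p = 0.0223) and -0.59 ± 0.13 in A10i hearts (adjusted p = 0.00592), a call at 0.01 in the latter.

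Complex IV, cytochrome c oxidase, contains 3 mitochondrial subunits that form its catalytic core. mt-Co1 (chrM:5328-6872) had the highest level per length of the 13 mRNAs in sham hearts, as counted, and its normalised CPM were 90555, 88045 and 86378 in the sham mice, 73347, 61638, 66556 and 50986 in the DMSO mice and 55304, 63573, 69106 and 66040.0 in the A10i mice, in the same order. The sham hearts lay within a narrow range above every ligated heart. With fold changes of -0.49 ± 0.16 (adjusted p = 0.0354) and -0.47 ± 0.13 (adjusted p = 0.0176) in DMSO and A10i hearts, mt-Co1 was not called at 0.01. mt-Co2 (chrM:7013-7696) was at 1185 ± 25.5 (sham), 870.3 ± 160.1 (DMSO) and 862 ± 86.4 (A10i) normalised CPM with log2 fold changes of -0.45 ± 0.10 in A10i hearts (adjusted p = 0.00598, lost in the joint fit and with library size alone) and -0.45 ± 0.15 in DMSO hearts (adjusted p = 0.0328). The A10i-DMSO difference was -0.01 ± 0.15. mt-Co3 (chrM:8607-9390) was at 1386 ± 67.4 (sham), 1017 ± 211 (DMSO) and 1005 ± 102 (A10i) normalised CPM, with -0.46 ± 0.11 in A10i hearts (adjusted p = 0.00674) and -0.45 ± 0.16 in DMSO hearts (adjusted p = 0.0433).

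The ATP synthase contributes mt-Atp8 (chrM:7766-7969) and mt-Atp6 (chrM:7927-8607), which are carried on one bicistronic mRNA and encode subunits of its membrane part. The end of the mt-Atp8 reading frame, in capitals, is also the start of mt-Atp6 in another frame, over 43 of 204 bases. How reads that overlap both genes were counted is not given in the sources used here.
mt-Atp8: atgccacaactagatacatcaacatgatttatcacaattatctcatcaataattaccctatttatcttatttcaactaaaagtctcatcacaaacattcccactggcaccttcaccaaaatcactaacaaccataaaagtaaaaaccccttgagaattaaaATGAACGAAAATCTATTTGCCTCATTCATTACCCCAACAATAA
mt-Atp6 had normalised CPM of 1358, 1250.2 and 1325 in the sham mice, 1312, 892, 1045 and 752 in the DMSO mice and 855, 964, 1027 and 1032 in the A10i mice, in the same order. A105, at 1312, lay inside the range of the sham mice, so the DMSO and sham groups overlapped for this gene. The log2 fold changes were -0.39 ± 0.17 in DMSO hearts (adjusted p = 0.0944) and -0.43 ± 0.10 in A10i hearts (adjusted p = 0.0069). For mt-Atp8, at 110.4 ± 5.61 (sham), 83.1 ± 20.2 (DMSO) and 81.1 ± 4.52 (A10i) normalised CPM, they were -0.41 ± 0.16 (adjusted p = 0.0711) and -0.44 ± 0.07 (adjusted p = 0.00102). These 2 genes had the smallest changes of the 13 mRNAs in each ligated group. Their log2 ratio, mt-Atp8 to mt-Atp6, was steady over all mice, from -3.66 to -3.51.

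Part of the mitochondrial genome also exists as copies in the nuclear genome, and since only uniquely aligned reads were counted, a read that aligns equally well to both places is in neither count. A stretch of chromosome 1 (chr1:24611535-24616197, mm10, minus strand) carries 7 annotated pseudogenes in the order of the mitochondrial genes mt-Co1 to mt-Nd4. Gm28661, Gm10925, Gm28437 and Gm10222 are identical to mt-Co2, mt-Atp6, mt-Co3 and mt-Nd4l over 681, 678, 783 and 294 bases. Gm28439 matches 876 bases of mt-Nd4 without a mismatch, and Gm29216 matches 483 bases of mt-Co1 with 1. mt-Nd3 and Gm28438 differ at 1 of 345 bases (T3C, counted from the first base of the gene, mitochondrial base first). Their first 120 bases are printed because so little separates them, and the capital marks that base (chrM:9459-9578, plus strand, and chr1:24613000-24613119, minus strand). mt-Nd4l (chrM:9877-10173, plus strand) follows, with the 3 bases that Gm10222 lacks in capitals.
mt-Nd3: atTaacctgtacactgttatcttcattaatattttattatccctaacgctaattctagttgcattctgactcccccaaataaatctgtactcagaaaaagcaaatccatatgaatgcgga
Gm28438: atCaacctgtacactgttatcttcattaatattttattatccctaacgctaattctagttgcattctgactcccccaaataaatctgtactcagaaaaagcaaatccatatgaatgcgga
mt-Nd4l: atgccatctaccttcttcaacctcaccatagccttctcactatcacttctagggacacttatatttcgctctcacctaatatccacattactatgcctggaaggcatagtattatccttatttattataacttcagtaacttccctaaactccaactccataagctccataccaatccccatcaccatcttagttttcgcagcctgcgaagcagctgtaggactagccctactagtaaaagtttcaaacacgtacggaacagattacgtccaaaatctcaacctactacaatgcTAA

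Levels per length were low where the copies are. For mt-Co2, mt-Atp6, mt-Co3, mt-Nd3 and mt-Nd4l, 97.6 to 99.9% of all 100-base windows, the length of 1 read, are present unchanged in an annotated nuclear transcript. In sham hearts these 5 genes lay between 682 and 1925 normalised CPM per kb. mt-Nd1, mt-Nd5 and mt-Cytb have no such window and lay at 27689, 16716 and 33077 per kb, and mt-Nd2, with 3.19% of its windows, at 19959. mt-Co1 (30.8% of windows) reached 57169 and mt-Nd4 (60.8%) reached 12905. mt-Atp8 had no window in an annotated transcript, although its place on the chromosome 1 stretch lies between Gm28661 and Gm10925, and was at 541 per kb. The levels of genes with such copies cannot be set against those of other genes. Among the mRNAs without copied windows outside this stretch, the order per kb in sham hearts was mt-Cytb, mt-Nd1, mt-Nd5 and mt-Nd6, the last at 972. In DMSO hearts it was the same, at 22329, 19794, 9402 and 514, and mt-Cytb and mt-Nd1 there differed by less than their SDs of 4148 and 2967 per kb. The place of mt-Nd6 is uncertain. Its capture by poly(A) selection was not tested, and the strand setting of the counts is not given.

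**Figure D3:**
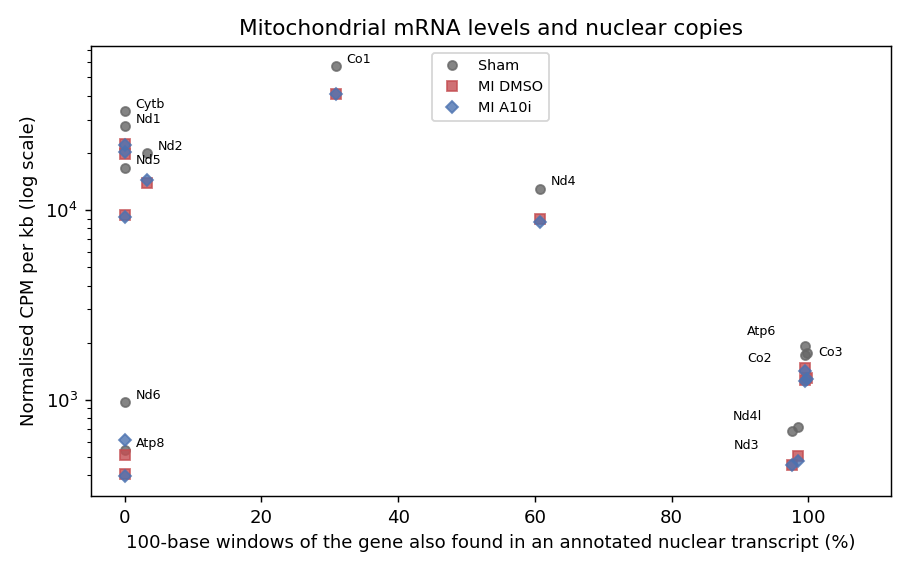
Group mean level per length (normalised CPM per kb, log scale) of the 13 mitochondrial mRNAs against the share of their 100-base windows that recur unchanged in an annotated nuclear transcript. The 5 genes at the right edge, at 97.6% or more, lie at 1925 per kb or below in sham hearts (grey), and DMSO (red) and A10i (blue) lie below sham for each gene.

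For 3 copies of the chromosome 1 stretch, the proportion to the mitochondrial partner varied little. Per 100 counts of mt-Atp6, Gm10925 had 101.15 to 105.04 in all 11 mice, and Gm28661 had 118 to 126 per 100 of mt-Co2. Gm28437 had 55.5 to 58.1 per 100 counts of mt-Co3. The proportion was less even for other pairs. Gm28439 had 2.65 to 3.19 per 100 counts of mt-Nd4, and Gm13339, a copy on chromosome 2, had 0.0254 to 0.0461 per 100 counts of mt-Nd2. The log2 fold change of Gm10925 in DMSO hearts, -0.39 ± 0.17, was that of mt-Atp6 to the second decimal, and in A10i hearts the copy was at -0.44 ± 0.10. Together with 3 less similar copies on chromosome 2 (Gm13339, Gm13340 and Gm13341), 10 copies were tested. In DMSO hearts 0 of them and in A10i hearts 10 were called lower, beside 9.6% and 9.11% of all genes tested, with medians of -0.47 and -0.50. At 0.05, 7 were lower in DMSO hearts, beside 18.4% of all genes tested. Between A10i and DMSO hearts the copies had a median of -0.03 and 0 were called. For the chromosome 1 pairs, reads that align equally well to both places are in neither count, so the counts of either gene are uncertain. The chromosome 2 copies Gm13341, Gm13339 and Gm13340 differ from their partners at 16, 17 and 37 aligned bases. From which place the counted reads came was not tested. All 10 copies together had 2.22 ± 0.075 counts per 100 mitochondrial counts in sham hearts.

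The 2 mitochondrial rRNAs, mt-Rnr1 (chrM:70-1024) of the small and mt-Rnr2 (chrM:1094-2675) of the large ribosomal subunit, carry only short tails and are caught in part by poly(A) selection, so their levels cannot be set against those of the mRNAs. They made up 5.68% ± 0.122 of the mitochondrial counts in sham, 5.47% ± 0.498 in DMSO and 5.93% ± 0.51 in A10i hearts. The normalised CPM of mt-Rnr1 were 3470.1, 3513 and 3589.9 in the sham mice, 2134, 2523, 1974 and 1644 in the DMSO mice and 1876, 2939, 2556 and 2763 in the A10i mice, in the same order. Both ligated groups lay wholly below sham, and all 4 DMSO mice lay below the A10i mice A117, A119 and A120. The log2 fold change was -0.77 ± 0.15 in DMSO hearts, which was called (adjusted p = 0.00304, and in 4 of the 7 fits with 1 mouse left out), and -0.47 ± 0.15 in A10i hearts, which was not (adjusted p = 0.0272). For mt-Rnr2 the normalised CPM were 10202, 10072 and 10165 in the sham mice, 7733, 7317, 7187 and 5312 in the DMSO mice and 5653, 8190.1, 7901 and 7467 in the A10i mice, in the same order. Its log2 fold changes of -0.56 ± 0.15 (adjusted p = 0.0143) and -0.47 ± 0.14 (adjusted p = 0.0224) did not pass 0.01.

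The 22 tRNA genes are 59 to 75 bases long, shorter than a 100-base read. Together they took 0.119% of the mitochondrial counts in sham hearts, so these values come from few reads. Which reads were counted for a tRNA, and whether they reached into its neighbours, was not tested. In 13 of the tRNA genes every library had 10 counts or more. The 6 left out by the low-count filter (mt-Tf, mt-Tv, mt-Tc, mt-Tk, mt-Th and mt-Ts2) had at most 17 counts in any library. Of the 16 tested, 2 were called lower in DMSO hearts and 4 in A10i hearts, and none higher, beside 9.6% and 9.11% of all genes called lower. mt-Tg, the tRNA for glycine (chrM:9391-9458, plus strand), and mt-Te, the tRNA for glutamate (chrM:14071-14139, minus strand), were called in both comparisons and are shown whole.
mt-Tg: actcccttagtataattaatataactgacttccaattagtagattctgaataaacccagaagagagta
mt-Te: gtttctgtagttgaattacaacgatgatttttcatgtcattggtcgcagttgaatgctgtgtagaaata
mt-Tg had 60, 35 and 34 counts in the sham libraries, 17, 14, 13 and 10 in the DMSO libraries and 11, 20, 12 and 10 in the A10i libraries. It showed the largest fold change of the 31 genes, -1.81 ± 0.34 in DMSO hearts (adjusted p = 0.00284) and -1.68 ± 0.33 in A10i hearts (adjusted p = 0.00341), at these low counts. mt-Tg was called in 6 and 5 of the 7 fits with 1 mouse left out. Its place on the chromosome 1 stretch lies between Gm28437 and Gm28438, the copies of its neighbours mt-Co3 and mt-Nd3. Whether reads of mt-Tg also align there was not tested. The normalised CPM of mt-Te were 4.68, 6.28 and 4.72 in the sham mice, 3.16, 2.65, 3.66 and 2.24 in the DMSO mice and 1.55, 2.75, 2.81 and 2.88 in the A10i mice, in the same order, from 39 to 168 counts a library. Its log2 fold changes were -0.84 ± 0.20 (adjusted p = 0.00984) and -1.07 ± 0.22 (adjusted p = 0.00409), and it was called in 1 and 4 of the 7 fits. In A10i hearts the tRNAs for glutamine, mt-Tq (-0.65 ± 0.13, adjusted p = 0.00281), and methionine, mt-Tm (-0.39 ± 0.08, adjusted p = 0.00293), were called as well.

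The other tRNAs ranged widely. mt-Tl1, the leucine tRNA next to mt-Rnr2, and mt-Ti, mt-Tm and mt-Tw had 607 to 1891 counts a library. mt-Tl1 was at 46.1 ± 2.94 (sham), 42.6 ± 13.6 (DMSO) and 41.3 ± 5.16 (A10i) normalised CPM, with log2 fold changes of -0.12 ± 0.21 in DMSO hearts (adjusted p = 0.687) and -0.15 ± 0.10 in A10i hearts (adjusted p = 0.247). Next to mt-Tw lies a block of 4 tRNAs on the opposite strand, mt-Ta, mt-Tn, mt-Tc and mt-Ty, with 3 to 44 counts against 702 to 1506 for mt-Tw. Counts of mt-Tr were 52 to 123, of mt-Ts1 74 to 207, of mt-Tp 74 to 163, of mt-Tt 35 to 118 and of mt-Tl2 14 to 21. None of these 5 was called in either comparison, with log2 fold changes between -0.66 and -0.02.

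To ask whether the mitochondrial transcripts moved as one, each gene was next taken as its share of all mitochondrial counts, which removes the common shift. The set of 28 genes held the mRNAs, the rRNAs and the 13 tRNAs with at least 10 counts in every library. In DMSO hearts 7 of the 28 shares did not overlap with sham, 4 higher and 3 lower, and in A10i hearts 11 did not, 7 higher and 4 lower. Exact permutation p was then 0.0571, the smallest possible, and the adjusted p over the 28 genes 0.229 and 0.145, so none passed. All shares have the same total, so a lower share of one gene raises others and these counts are not independent. The measure has no counterpart over all genes tested. Without A127 or A128 the number of shares that did not overlap in DMSO hearts was 11. The share of mt-Nd5 was 12.7, 12.9 and 12.4% in the sham mice, 11, 9.1, 10.2 and 11.5% in the DMSO mice and 10.4, 10.5, 10.8 and 9.0% in the A10i mice. The mean log2 difference was -0.28 in DMSO and -0.32 in A10i hearts. mt-Co1 took 36.7% ± 0.195 of the mitochondrial counts in sham hearts, 38.5% ± 0.484 in DMSO and 38.5% ± 0.738 in A10i hearts. In DMSO and A10i hearts the log2 difference from sham was -0.02 and -0.05 for mt-Cytb, 0.02 and -0.03 for mt-Nd4, and 0.14 and 0.11 for mt-Atp6.

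**Figure D4:**
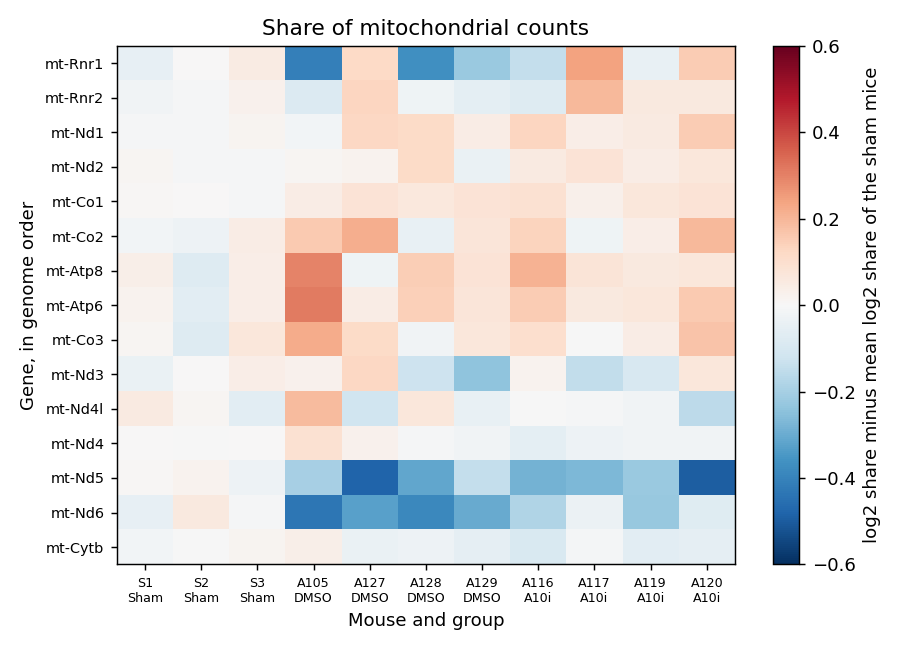
Log2 share of the mitochondrial counts of each mRNA and rRNA in each mouse, minus the mean of the 3 sham mice (colour scale from -0.6, blue, to 0.6, red). mt-Nd5 is blue in all 8 ligated mice, with group mean differences of -0.28 and -0.32, mt-Nd6 is darkest in the DMSO mice, and mt-Rnr1 varies most among ligated mice.

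Between A10i and DMSO hearts edgeR called 0 of the 31 mitochondrial genes and 0% of all genes tested. An unadjusted p under 0.05 was found for 0 of the 31, beside 2323 of all 16792 genes tested. DESeq2 also called 0 of the mitochondrial genes. It did call the nuclear gene Pprc1 in this comparison, and its share of all genes is not given here. The paper, which used DESeq2 at 0.01, reported genes changed in both directions. No mitochondrial gene separated the groups, where 8.12% of all genes did in one direction or the other. The median log2 fold change of the 31 genes was -0.01, and the 13 mRNAs lay between -0.08 (mt-Nd4l) and 0.25 (mt-Nd6). The 2 genes furthest from 0 among mRNAs and rRNAs were mt-Rnr1, 0.30 ± 0.18 (adjusted p = 0.517), and mt-Nd6, 0.25 ± 0.13 (adjusted p = 0.423). As shares of the mitochondrial counts, 2 of 28 genes did not overlap between the groups, and 4 without A117 or without A127. mt-Nd6 took 0.155, 0.167, 0.16 and 0.17% in the DMSO mice and 0.185, 0.204, 0.179 and 0.199% in the A10i mice, and mt-Nd4 took 7.87, 7.52, 7.35 and 7.29% and 7.1, 7.24, 7.28 and 7.28%. Both had the smallest exact permutation p that 4 against 4 mice allow (0.0286), and adjusted over the 28 genes it was 0.40.

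Respiratory complexes need mitochondrial and nuclear products together. The 13 mitochondrial mRNAs were therefore set against the summed counts of 76 nuclear genes for subunits of complexes I, III, IV and V. Per nuclear count there were 6.82, 6.65 and 6.4 mitochondrial mRNA counts in the sham mice, 6.13, 5.34, 5.95 and 5.97 in the DMSO mice and 5.65, 5.39, 5.42 and 5.09 in the A10i mice. Every ligated heart had a lower ratio than every sham heart, which did not hold for DMSO hearts with complex IV genes alone. The mean log2 difference from sham was -0.18 in DMSO and -0.30 in A10i hearts (two-sided exact permutation p = 0.0571 each, the smallest possible), and A10i differed from DMSO by -0.12 (p = 0.114). The nuclear subunit genes had median log2 fold changes of -0.34 in DMSO and -0.19 in A10i hearts, with 4 and 2 of 75 called lower and none higher, a smaller share than the 9.6% and 9.11% of all genes called lower. In DMSO hearts the called genes, named after their values were seen, were Ndufs8 (-0.55 ± 0.12), Ndufa10 (-0.52 ± 0.12) and Ndufs5 (-0.38 ± 0.09) of complex I and Cox7a1 (-1.01 ± 0.20), the heart and muscle form of a complex IV subunit, and in A10i hearts they were Ndufs1 (-0.47 ± 0.11) and Cox7a1 (-0.68 ± 0.13). In A10i against DMSO hearts 73 of the 75 had a positive log2 fold change (median 0.14), and edgeR called none. None had an unadjusted p under 0.05, beside 2323 of all 16792 genes tested.

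Against the summed cardiomyocyte markers the same mRNAs gave another order. The ratio was 1.69 to 1.79 in sham, 1.72 to 2.11 in DMSO and 1.6 to 1.72 in A10i hearts. The mean log2 difference from sham turned to 0.14 in DMSO hearts (exact permutation p = 0.171) and was -0.05 in A10i hearts (p = 0.229). Of the 20 marker genes 8 were called lower in DMSO and 4 in A10i hearts, where 9.6% and 9.11% of all genes tested were. Their median log2 fold changes were -0.54 and -0.37, beside -0.51 and -0.48 for the 13 mitochondrial mRNAs. The A10i-DMSO difference on this log2 scale was -0.19 (exact permutation p = 0.0286, unadjusted, the smallest possible), with no overlap between the groups. The separation was narrow, with the lowest DMSO mouse, A127, at 1.7198 and the highest A10i mouse, A116, at 1.7169. Against the nuclear subunits the exact permutation p was 0.114.

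The nuclear genes that make and handle mitochondrial RNA were examined as lists chosen with earlier results of these data known. Of the 10 genes of mitochondrial transcription, 1 was called lower in DMSO and 1 in A10i hearts, and none higher, near the 9.6% and 9.11% of all genes called lower, with medians of -0.39 and -0.26. It was Tfb2m, the initiation factor of the polymerase, in each (-0.48 ± 0.11, adjusted p = 0.00778, and -0.41 ± 0.10, adjusted p = 0.00759). In each comparison Tfb2m was called in 2 of the 7 fits with 1 mouse left out. Scaling by library size alone lost both calls, and the joint fit lost the A10i call. Polrmt, the mitochondrial RNA polymerase itself, was at 39.4 ± 0.83 normalised CPM in sham, 30.6 ± 3.72 in DMSO and 33.3 ± 4.69 in A10i hearts, with log2 fold changes of -0.37 ± 0.10 (adjusted p = 0.0157) and -0.24 ± 0.10 (adjusted p = 0.0887). Tfam, which packages the genome and helps to start transcription, had log2 fold changes of -0.29 ± 0.11 (adjusted p = 0.051) and -0.27 ± 0.08 (adjusted p = 0.0156). Neither passed 0.01. Of 18 genes of mitochondrial DNA replication and the nucleoid, 3 were lower and 1 higher in DMSO hearts, and 5 and 1 in A10i hearts, set against those same shares of all genes called lower and 12.9% and 13.7% called higher. The helicase Twnk fell (-0.64 ± 0.11 and -0.47 ± 0.09, adjusted p = 0.00184 and 0.00266), and so did Rrm2b, a ribonucleotide reductase subunit that supplies mitochondrial DNA synthesis, named after its values were seen (-0.52 ± 0.10 and -0.54 ± 0.07). The exonuclease Mgme1 fell in DMSO hearts (-0.58 ± 0.10, adjusted p = 0.00214) and did not pass in A10i hearts (-0.38 ± 0.10, adjusted p = 0.0112). The gene that rose was Fen1, a flap endonuclease that also serves nuclear DNA replication (1.06 ± 0.21 and 1.04 ± 0.17, adjusted p = 0.00386 and 0.00126). Polg, the catalytic subunit of the mitochondrial DNA polymerase, had log2 fold changes of -0.26 ± 0.07 (adjusted p = 0.0213) and -0.29 ± 0.06 (adjusted p = 0.00415), a call in A10i hearts. The other 2 called lower there were Dguok (-0.33 ± 0.07) and Polg2 (-0.62 ± 0.14), also named after their values were seen.

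Of 43 genes of mitochondrial RNA processing, modification and decay, 10 were called lower in DMSO and 9 in A10i hearts and none higher. Of all genes tested, 9.6% and 9.11% were called lower and 12.9% and 13.7% higher. The list medians were -0.22 and -0.26. Among those that fell was Lrpprc, which binds and stabilises mitochondrial mRNAs, at 261 ± 3.93 normalised CPM in sham, 163 ± 22.6 in DMSO and 174 ± 21.5 in A10i hearts (-0.68 ± 0.11 and -0.58 ± 0.10, adjusted p = 0.0016 and 0.00138). Slirp, its partner protein, was at 19.8 ± 2.31, 19.8 ± 2.33 and 20.2 ± 2.67 and had log2 fold changes smaller than their SE (-0.01 ± 0.12 and 0.03 ± 0.12, and 0.20 in DMSO hearts with scaling by library size alone). The largest falls of the list in DMSO hearts were those of Ptcd1, a pentatricopeptide repeat protein that binds mitochondrial RNA (-0.88 ± 0.09 and -0.71 ± 0.07, adjusted p = 0.000192 and 0.000185), and of Mrm1, a methyltransferase of the large mitochondrial rRNA (-0.86 ± 0.11 and -0.54 ± 0.13, adjusted p = 0.000554 and 0.00783). Among 14 regulators of mitochondrial biogenesis, 2 fell and 2 rose in DMSO hearts. Those that fell were Ppara (-0.75 ± 0.09) and Perm1 (-0.62 ± 0.11), and those that rose were Pprc1 (0.98 ± 0.10) and Ppargc1a, the first 3 of them named after their values were seen. In A10i hearts Ppara (-0.62 ± 0.09) and Esrrg (-0.53 ± 0.11) fell and Gabpb1 (0.38 ± 0.09) rose, chosen in the same way. Ppargc1a, the coactivator known for driving mitochondrial biogenesis, was at 177 ± 5.35 in sham, 342 ± 58.1 in DMSO and 277 ± 76.8 in A10i hearts, opposite in direction to the mitochondrial transcripts (0.94 ± 0.13, adjusted p = 0.000752, and 0.65 ± 0.18, adjusted p = 0.0214). Over these 4 lists and the mitoribosome, edgeR called 30 of 160 genes in DMSO hearts (26 lower, 4 higher) and 27 in A10i hearts (24 lower, 3 higher). These stand beside the shares of all genes given above. The number changed when single libraries were left out, and the share of all genes called in those fits is not given here. Without S1, S2 or S3 the number was 7, 8 and 8 in DMSO hearts and 10, 10 and 9 in A10i hearts. Without A127 it was 18 and without A120 it was 16. Lrpprc was called in 5 and 7 of the 7 fits with 1 mouse left out, Ptcd1 in 7 and 7, and Fen1 in 3 and 7. Twnk was called in 4 and 4 of them, Mrm1 in 7 and 2, Mgme1 in 5 and 2, and Polg in 0 and 3. With library size alone Mgme1 lost its DMSO call, and Twnk, Mrm1 and Polg lost their A10i calls. The joint fit lost the A10i call of Mrm1. Between A10i and DMSO hearts edgeR called none of the 160 genes tested, and DESeq2 called 1. In edgeR 10 had an unadjusted p under 0.05, beside 2323 of all 16792 genes tested.

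Among the 8 ligated mice the mitochondrial level was lower where macrophage markers were higher. Mitochondrial counts per 100 nuclear counts ran from 17.3 in A129 and 18.6 in A116 to 22.8 in A105. Macrophage markers took 0.217% of the nuclear counts in A129, 0.27% in A116 and 0.0868% in A105. On the log2 scale Pearson's r was -0.92 (exact permutation p over all pairings = 0.00161, 0.00967 adjusted over the 6 cell-type lists) and Spearman's rho -0.95 (exact permutation p = 0.00114, adjusted 0.00685). Without A116 and A105, the mice farthest from the median in these markers, r was -0.95 (exact permutation p = 0.00694). Mice of the 2 ligated groups were interspersed along this relation, and 4 mice are too few for a value within each group. Fibroblast markers gave r = -0.79 (exact permutation p = 0.0205, adjusted 0.0615, rho -0.79, exact permutation p = 0.0279), which became -0.71 (exact permutation p = 0.164) without the same 2 mice. Cardiomyocyte markers gave r = 0.68 (exact permutation p = 0.066, adjusted 0.132) and rho = 0.43 (exact permutation p = 0.299), and r = 0.17 (exact permutation p = 0.768) without A129 and A119, so the relation in the summed share rested on those mice. With the mean of log2 CPM per marker in place of the summed share, r was 0.82 (exact permutation p = 0.0132). Endothelial markers gave r = -0.39 and rho = -0.33 (exact permutation p = 0.345 and 0.428), and r = -0.35 without A105 and A119. Neutrophil markers gave r = -0.37 and rho = -0.12 (exact permutation p = 0.366 and 0.793), and r = 0.34 without A119 and A129. Red blood cell transcripts gave r = 0.11 and rho = 0.26 (exact permutation p = 0.799 and 0.536), and r = 0.67 without A128 and A117. Both measures of each pair are taken over the nuclear counts of the same library. The part of these cells in the lower mitochondrial level was not tested.

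**Figure D5:**
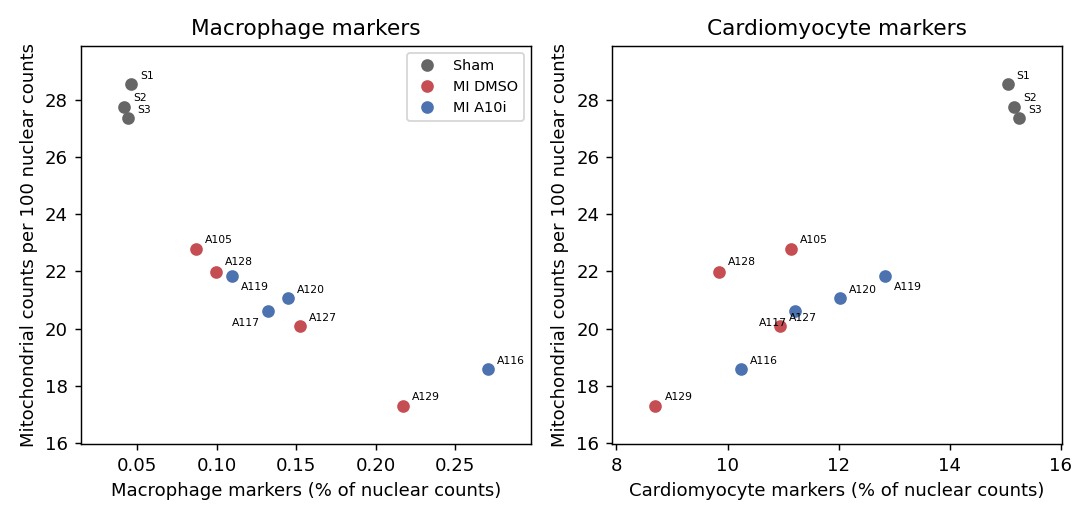
Mitochondrial counts per 100 nuclear counts of each mouse against the share of macrophage markers (left) and of cardiomyocyte markers (right) in the nuclear counts (%). Among the ligated mice, A129 and A116 are lowest in mitochondrial counts, at 17.3 and 18.6, and highest in macrophage markers, and the 3 sham mice stand apart.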

How the data were processed

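RNA of 11 hearts was poly(A)-enriched and sequenced as strand-specific 100-base pairs. The authors demultiplexed with bcl2fastq 2.20.0, aligned to mm10 (Ensembl 98 annotation) with GSNAP, and assigned unique alignments to genes with featureCounts 2.0.1; the strand setting is not given in the sources used here. The deposited values are these raw counts, summing to 21702623 to 29511768 per library after 92 spike-in rows (14 to 55 counts a library) were left out. Groups came from the labels, which give no batch. The members and gene lists were chosen with earlier results of these data known. Replicates differed by more than sampling noise (chi-square per degree of freedom 4.04 to 60.8 over 15 pairs).

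Each pair of groups was fitted with edgeR 4.0.16 (R 4.3.3; filterByExpr, TMM, robust glmQLFit and glmQLFTest), with Benjamini-Hochberg adjustment over all genes tested (17117, 16971 and 16792 for DMSO or A10i against sham and A10i against DMSO). Normalised CPM use TMM factors over all 11 libraries. Single values were compared with exact permutation tests (scipy 1.17.1). Named genes were all mRNAs and rRNAs, tRNAs with 10 counts in every library, Polrmt, Tfam, Twnk, Polg, Lrpprc, Slirp and Ppargc1a, and, for each of the 3 lists on mitochondrial transcription, replication and RNA processing, up to 2 largest rises and falls past the threshold in DMSO against sham. Nuclear copies were found with blastn 2.17.0 in GENCODE M21 transcripts (GRCm38), the source of the sequences. Alternatives were DESeq2 1.42.0, other scalings, filters, thresholds and denominators, a joint fit and leaving out each mouse. On simulated counts edgeR recovered 13 of 64 at 1.5-fold, 35 of 65 at 2-fold, 58 of 66 at 4-fold for DMSO against sham (17117 genes), 28 of 67 at 1.5-fold, 44 of 65 at 2-fold, 57 of 63 at 4-fold for A10i against sham (16971 genes) and 10 of 66 at 1.5-fold, 36 of 66 at 2-fold, 59 of 66 at 4-fold for A10i against DMSO (16792 genes).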

Additional observations from a re-analysis of the deposited data

Results flagged for a closer look

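In 6 of 90 groups of 4 mice, 1 mouse stood further from the rest than Dixon's 95% critical value allows; chance alone flags about 1 in 20. These were mt-Tl1 at 33.7 normalised CPM in the A10i mouse A116, against 43.2 to 44.7 in the other 3. Another was mt-Ts1 at 2.9 normalised CPM in the DMSO mouse A129, against 4.36 to 4.47 in the other 3. So was mt-Tl2 at 0.885 normalised CPM in the DMSO mouse A105, against 0.499 to 0.549 in the other 3. Another was mt-Te at 1.55 normalised CPM in the A10i mouse A116, against 2.75 to 2.88 in the other 3. So was mt-Atp8 at 0.053% of the mitochondrial counts in the A10i mouse A116, against 0.0477 to 0.0484% in the other 3. Another was mt-Nd4l at 0.0794% of the mitochondrial counts in the A10i mouse A120, against 0.0872 to 0.0884% in the other 3. A116 and A129, which appear among them, were also the ligated mice lowest in total mitochondrial share.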

How the results depend on the processing

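The group means of the mitochondrial share and of its ratio to nuclear subunits stayed below sham in both ligated groups under every alternative except the cardiomyocyte denominator in DMSO hearts, where the log2 difference from sham was 0.14. With that denominator A10i against DMSO passed 0.05 at -0.19, although the mice A127 and A116 were nearly tied. With complex IV genes alone, DMSO hearts (13.1 to 15.9) overlapped sham hearts (15.2 to 16.7), with a log2 difference of -0.11 (exact permutation p = 0.229). A10i hearts, at 12.5 to 14.4, still lay below sham there. Genes called in DMSO against sham numbered 8 without the filter, 16 with DESeq2, 20 at 0.05 and 1 to 13 with 1 mouse left out, against 5. In A10i against sham they numbered 4 in the joint fit, 24 at 0.05, 21 with DESeq2 and 5 to 21 with 1 mouse left out, against 14. In every fit run, none was called higher against sham and none was called between A10i and DMSO. Apart from the threshold of 0.05, the shares of all genes called under these alternatives are not given here. The A10i-DMSO difference in share, near 0, was -0.0702 percentage points for the mRNAs alone, -0.0574 without rRNA and tRNA genes in the total and -0.739 to 0.529 with 1 mouse left out. Fold changes of A10i against DMSO that changed sign with 1 mouse left out ran, per gene, as mt-Rnr2 -0.019 to 0.20, mt-Nd1 -0.063 to 0.10, mt-Tq -0.052 to 0.26, mt-Tm -0.013 to 0.27, mt-Nd2 -0.071 to 0.12, mt-Co1 -0.079 to 0.090, mt-Co2 -0.11 to 0.10, mt-Atp8 -0.14 to 0.12, mt-Atp6 -0.16 to 0.11, mt-Co3 -0.12 to 0.12, mt-Tg -0.11 to 0.32, mt-Nd3 -0.13 to 0.12, mt-Nd4l -0.19 to 0.074, mt-Nd4 -0.15 to 0.067, mt-Nd5 -0.10 to 0.10, mt-Cytb -0.13 to 0.085. Shares within the mitochondrial genome that did not overlap numbered 4, 7 and 1 among the 13 mRNAs over mRNA counts (DMSO and A10i against sham, A10i against DMSO), and 7 to 11, 11 to 15 and 2 to 4 with 1 mouse left out; with medians, which many regroupings share, 0 genes reached the smallest p. With the mean of log2 CPM per marker, cardiomyocyte markers gave r = 0.82 (exact permutation p = 0.0132) and passed 0.05. With the main measure, neutrophil markers gave r = 0.34 without the 2 farthest mice. Genes of mitochondrial RNA metabolism called at 0.05 numbered 71 and 66 of 160 against sham. Among all 17117 genes tested in DMSO against sham, 3145 were lower and 3687 higher at 0.05. Among all 16971 in A10i against sham, 2984 were lower and 3687 higher. DESeq2 called 1 gene of mitochondrial RNA metabolism between A10i and DMSO. Leaving out 1 mouse, a check chosen after seeing the data, gave 7 to 39, 9 to 33 and 0 to 0 in the 3 comparisons. The main fits gave 30, 27 and 0. Adding the nuclear copies to the mitochondrial counts and using the 6 mRNAs without a near-identical annotated copy, both chosen after seeing the data, kept direction. A10i against DMSO stayed above 0.05 in both. Against sham the smallest possible exact permutation p is 0.0571, so no alternative could cross 0.05 there. Slirp ran from -0.11 to 0.051 (DMSO) and -0.063 to 0.13 (A10i against sham) with 1 mouse left out, and gave 0.20 in DMSO hearts with library size alone. The cause of these moves was not tested. Depth limits mt-Tg, at 10 to 60 counts a library. No paired analysis was possible because the groups share no replicate numbers.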

Other observations

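The proteins of the mitochondrial ribosome, all nuclear products, were tested as 77 genes. In DMSO hearts 10 were called lower and 1 higher (median log2 fold change -0.22), and in A10i hearts 7 and 1 (median -0.16). The shares called lower were near those of all genes tested, 9.6% and 9.11%. The 4 subunits of complex II, which has no mitochondrially encoded part, had medians of -0.30 and -0.20, with none called by edgeR. Pprc1, a coactivator of mitochondrial biogenesis named after its values were seen, was the 1 gene of mitochondrial RNA metabolism that DESeq2 called between A10i and DMSO hearts (-0.63 ± 0.13, adjusted p = 0.000457). In edgeR its adjusted p was 0.0707.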
